A study of Mus musculus with 59 samples.

Results

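Projection neurons are the main output cells of the striatum, the large nucleus below the cortex, and 9 genes that mark them were followed here in prefrontal cortex, where such cells are not the main population. The genes were Drd1 and Tac1 of the direct pathway, Drd2, Adora2a, Gpr6 and Penk of the indirect pathway, and Ppp1r1b, Rgs9 and Pde10a, which both kinds of neuron use. They are 9 of the 18088 genes in the table, and all 9 passed the filter on low values. They were listed because earlier results on these same libraries showed several of them high in a few samples, so the levels that set those samples apart are given as a description, with no test.

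The tissue came from C57BL/6J mice on postnatal day 25. Pups were wild type (WT) or labelled heterozygous (HT) for Myt1l, a zinc finger transcription factor of neurons, and had been given vehicle, the antidepressant fluoxetine, which blocks serotonin reuptake, or the mood stabiliser lithium by way of the mother's milk over 3 weeks, postnatal days 3 to 24. The 59 libraries form 12 groups of genotype, drug and sex, 11 of them with 5 libraries and WT fluoxetine females with 4. The labels name no Myt1l allele, litter or dam, so each pup counted as 1 replicate and p-values measure only the spread between pups, which may share a litter.

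Recovered depth ran from 25088446 to 35858365 reads per library. Myt1l itself ranged from 6189 to 10162 normalized counts (median 8618) in the 30 libraries labelled HT and from 6532 to 7961 (median 7045) in the 29 WT libraries, and was not lower under the HT label (vehicle pups, log2 difference 0.17, SE 0.0629, adjusted p = 0.414 by limma). HT therefore stands for the label throughout. The cortical excitatory genes Slc17a7, Cux2 and Tbr1 were present in every library, the lowest Slc17a7 value being 25586. A set of 14 libraries, all the fluoxetine ones except those of WT males, held 10203 to 20887 normalized counts of mt-Atp6, a mitochondrial gene, against 36054 to 70728 in the other 45.

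Striatal projection neurons receive glutamate from the cortex and dopamine from the midbrain. Direct pathway cells carry the D1 dopamine receptor, which raises cAMP, and make substance P, while indirect pathway cells carry the D2 receptor, which lowers cAMP, together with an adenosine receptor that raises it, and make enkephalin. Both contain DARPP-32, which relays cAMP signals to protein phosphatase 1, and the phosphodiesterase PDE10A, which breaks the second messenger down. The cortex holds its own sparse sources of these transcripts, among them deep-layer neurons with Drd1 and interneurons with Tac1 or Penk. In such bulk tissue fewer cells of a type and less RNA per cell cannot be told apart.

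The promoters of Drd2, Gpr6 and Rgs9 are shown because these genes, with Adora2a, are the members whose values in the 5 highest libraries all exceeded every other library. Of the 9 genes, 6 had an entry in the promoter table, and Adora2a, Penk and Ppp1r1b are named only. Each sequence is the 250 bases before a RefSeq start site (GRCm38.p6), read 5′ to 3′ on the gene's own strand. They lie at chr9:49340153-49340402 on the plus strand for Drd2, at chr10:41072291-41072540 on the minus strand for Gpr6 and at chr11:109298182-109298431 on the minus strand for Rgs9.
Drd2: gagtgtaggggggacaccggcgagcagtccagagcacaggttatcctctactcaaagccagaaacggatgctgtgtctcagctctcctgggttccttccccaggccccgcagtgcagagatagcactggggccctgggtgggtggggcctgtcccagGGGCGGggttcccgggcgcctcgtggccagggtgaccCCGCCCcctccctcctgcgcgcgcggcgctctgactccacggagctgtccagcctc
Gpr6: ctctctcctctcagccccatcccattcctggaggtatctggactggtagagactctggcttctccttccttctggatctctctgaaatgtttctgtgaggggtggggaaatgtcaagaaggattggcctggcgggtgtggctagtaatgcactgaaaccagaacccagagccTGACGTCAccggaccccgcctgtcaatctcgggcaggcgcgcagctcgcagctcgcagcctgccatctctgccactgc
Rgs9: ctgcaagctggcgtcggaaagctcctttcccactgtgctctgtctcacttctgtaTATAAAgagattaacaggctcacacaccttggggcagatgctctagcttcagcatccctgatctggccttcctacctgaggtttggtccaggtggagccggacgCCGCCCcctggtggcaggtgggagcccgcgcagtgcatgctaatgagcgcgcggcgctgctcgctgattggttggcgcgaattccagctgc
Capitals mark matches on either strand to 1 of 6 motifs that were searched. The cAMP response element was read as TGACGTCA, and it contains its shorter core, TGACG, on both strands. For the retinoic acid receptor the letters were AGGTCA and for the GC box GGGCGG. The TATA box was read as TATAAA, and the E-box, which helix-loop-helix factors bind, as CACGTG. Gpr6 held 1 complete cAMP response element, a sequence found in 1.546% of the 32851 promoter windows in the table. Drd2 held 2 GC boxes and Rgs9 held 1 GC box and 1 TATA box, against shares of 32.74% and 12.37% of windows. The retinoic acid receptor letters (14.02% of windows), the E-box (6.021%) and a cAMP response core outside the complete element (17.77% for any core) were not found in these 3 windows. A match is a description of the letters only.

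Levels between genes were compared per kilobase of exon sequence, as medians over the 59 libraries. Penk, which encodes the enkephalin precursor, was highest at 666 normalized counts per kilobase, followed by Ppp1r1b (DARPP-32) at 563, Pde10a at 138 and Tac1, the substance P precursor, at 128. Drd1 stood at 54.8, Rgs9, a regulator that shortens D2 receptor signalling, at 49.7, Adora2a, that adenosine receptor, at 28.4, Gpr6, an orphan receptor that raises cAMP, at 24.1, and Drd2 at 10.7. Across the 54 libraries outside the 5 highest, the coefficient of variation ran from 14.1% for Pde10a and 17.2% for Rgs9 to 42.5% for Drd2. Penk and Ppp1r1b, Pde10a and Tac1, Drd1 and Rgs9, and Adora2a and Gpr6 were therefore pairs of neighbours whose levels differed by less than the spread of their more variable member.

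All 9 genes lie on autosomes (GRCm38): Drd1 on 13 (54051183 to 54055705), Tac1 on 6 (7554879 to 7565834), Drd2 on 9 (49340627 to 49408177), Adora2a on 10 (75316877 to 75334784), Gpr6 on 10 (41069977 to 41072285), Penk on 4 (4133531 to 4138819), Ppp1r1b on 11 (98348404 to 98357796), Rgs9 on 11 (109225355 to 109298129) and Pde10a on 17 (8525372 to 8986648). Penk, Ppp1r1b and Pde10a overlap genes annotated on the opposite strand (A830012C17Rik for Penk, 1700003D09Rik for Ppp1r1b). The library kit was a stranded one, but whether the counting used strand is not recorded, so the values of these 3 genes may include reads from such partners.

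Libraries were ordered by the mean of the 9 genes' standardized log2 levels. The largest gap in that order, 0.758, separated 5 libraries from the other 54. These were HT fluoxetine female 2 (2.68), HT vehicle female 3 (2.30), HT fluoxetine male 2 (2.01), HT vehicle male 3 (1.98) and WT fluoxetine female 2 (1.46). Just outside stood WT vehicle female 4 at 0.70 and HT fluoxetine male 4 at 0.69, and the lowest library was HT fluoxetine female 3 at -0.93. None of the 5 was a lithium library, and in each of the 5 groups concerned only 1 library stood above the gap.

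**Figure D1:**
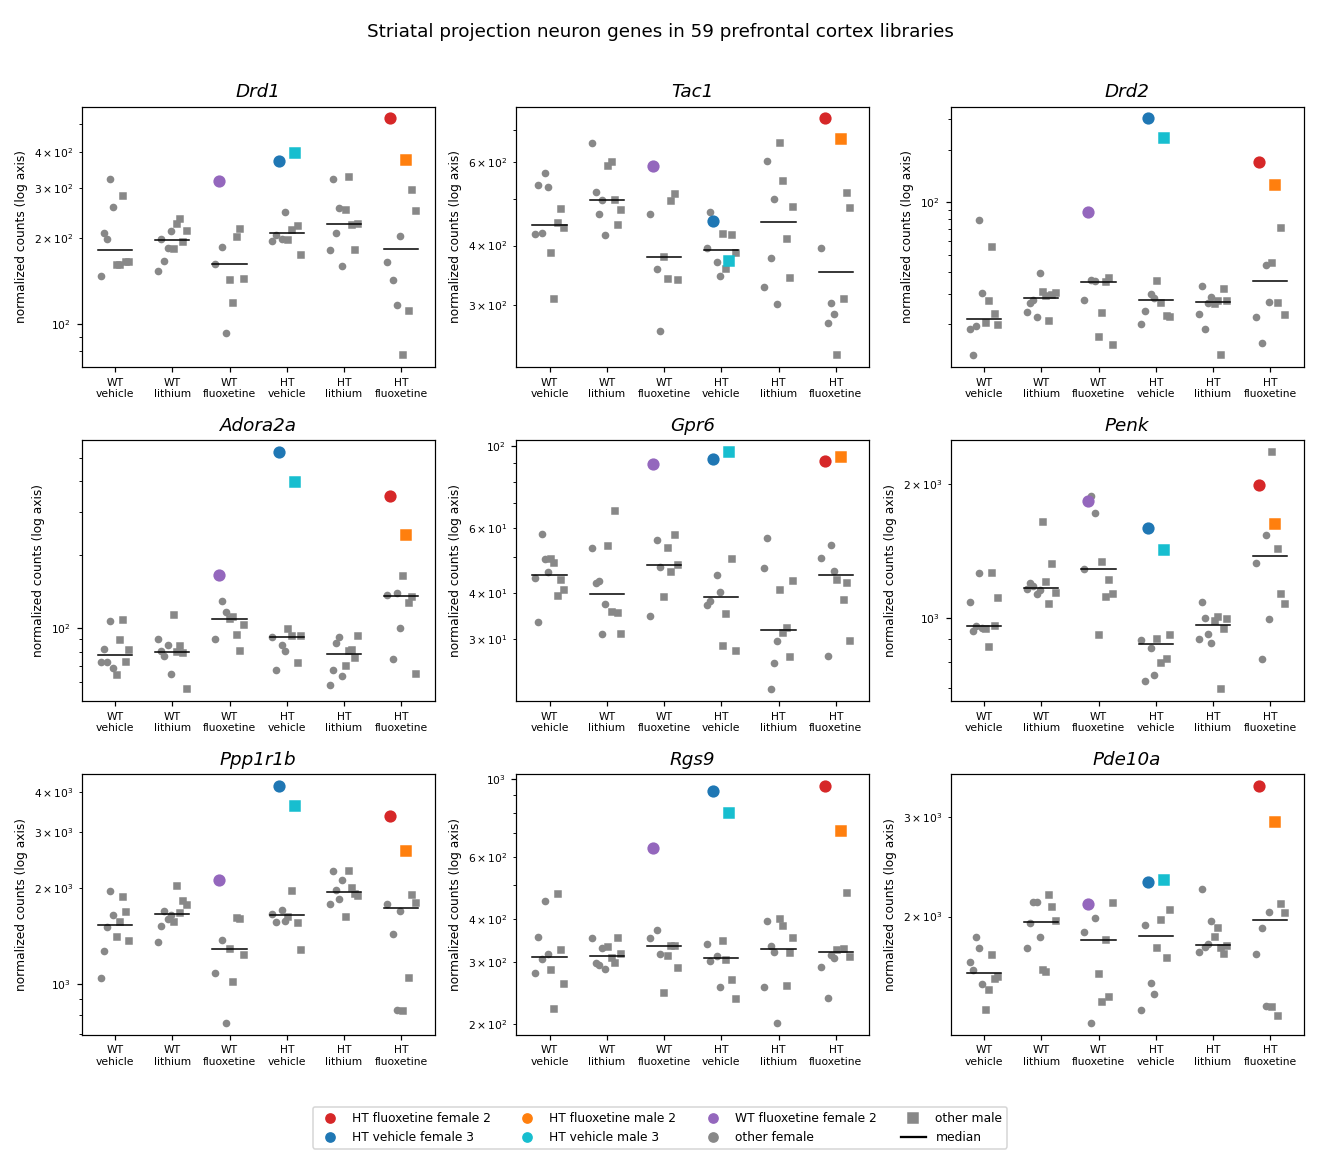
Normalized counts (log axis) of each of the 9 genes in all 59 libraries by genotype and drug, with females as circles, males as squares, the 5 libraries above the gap in color and black bars for medians. Drd2, Adora2a, Gpr6 and Rgs9 are above all 54 other libraries in each of the 5, whereas Penk is highest in a library outside them, HT fluoxetine male 1 at 2356.

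Drd2, the D2 dopamine receptor, had the widest span of the 9 genes. In HT vehicle females it was 20.2, 23.8, 304, 29.9 and 28.2 normalized counts in replicates 1 to 5, and in HT vehicle males 35.6, 26.5, 234, 22.2 and 21.9. The lone high pup in each of these groups was replicate 3, and its group mates stayed at the cortical level, the median of all 59 libraries being 27.1. HT fluoxetine females read 22.1, 172, 15.6, 43.6 and 26.7, HT fluoxetine males 45.2, 125, 26.6, 71.2 and 22.5, and the 4 WT fluoxetine females 27.7, 88.4, 35.9 and 35.6. Replicate 2 was highest in each of these fluoxetine groups. The highest of the other 54 libraries was WT vehicle female 4 at 79.0, so WT fluoxetine female 2 lay only just above the rest, and the ratios of the 5 to the median ran from 3.26 to 11.2.

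Adora2a followed Drd2 at a smaller ratio. It was 526 in HT vehicle female 3, 396 in HT vehicle male 3, 348 in HT fluoxetine female 2 and 241 in HT fluoxetine male 2, against a median of 86.9. In WT fluoxetine female 2 it was 164.3, beside 164.2 in HT fluoxetine male 1, the highest of the other 54. The adenosine receptor transcript thus set 4 libraries clearly apart and the fifth by less than 1 normalized count.

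Gpr6 was nearly level among the 5 libraries, at 91.4, 92.2, 93.4, 96.3 and 89.5 in the order in which they are listed above. The other 54 libraries held 22.0 to 66.7, with a median of 43.1 over all libraries. Its ratio to the median stayed between 2.08 and 2.23 in these libraries, over which the ratio of Drd2 spanned 3.26 to 11.2. Penk, the other indirect pathway gene, behaved differently. It read 1993, 1596, 1623, 1426 and 1832 in the 5 libraries in the same order, which is 1.31 to 1.83 times the median of 1089, and 0 of the 5 exceeded the highest of the others.

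Among the direct pathway genes, Drd1 (the D1 dopamine receptor) was 525 in HT fluoxetine female 2, 396 in HT vehicle male 3, 376 in HT fluoxetine male 2, 371 in HT vehicle female 3 and 316 in WT fluoxetine female 2. The other 54 libraries ran from 77.5 to 327, so 4 of the 5 were above all of them. Tac1 was 741 in HT fluoxetine female 2 and 669.6 in HT fluoxetine male 2, both above the 235 to 659 of the others. It was 588 in WT fluoxetine female 2, 451 in HT vehicle female 3 and 371 in HT vehicle male 3, all inside that range. The median of Tac1 was 436, and HT vehicle male 3 stood below it at a ratio of 0.852.

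Of the genes that both kinds of projection neuron use, Rgs9 was highest in HT fluoxetine female 2 at 954, then 924 in HT vehicle female 3, 802 in HT vehicle male 3, 709 in HT fluoxetine male 2 and 636 in WT fluoxetine female 2. The others ran from 202 to 473, well below. Ppp1r1b peaked at 4175 in HT vehicle female 3 and 3619 in HT vehicle male 3, with 3355 in HT fluoxetine female 2, 2619 in HT fluoxetine male 2 and 2121 in WT fluoxetine female 2. The last of these was inside the range of the others, 756 to 2258. Pde10a put the libraries in another order, 3402 in HT fluoxetine female 2 and 2934 in HT fluoxetine male 2 against 2321 in HT vehicle male 3, 2303 in HT vehicle female 3 and 2101 in WT fluoxetine female 2, with the others at 1297 to 2234.

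**Figure D2:**
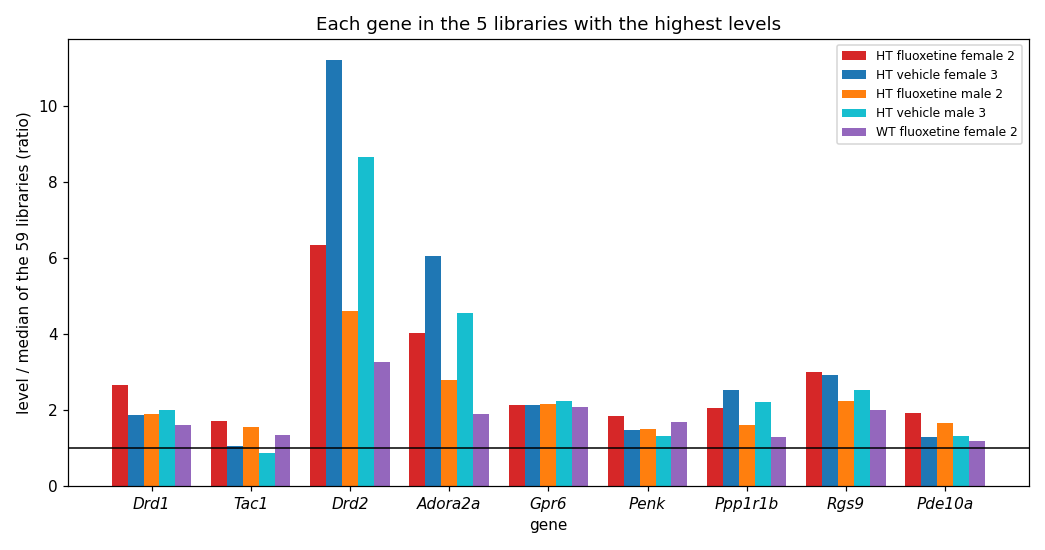
Level of each gene in the 5 highest libraries, divided by its median over 59 libraries (bars from 0, line at 1). Drd2 reaches 11.2 in HT vehicle female 3 and Tac1 stays at 1.04 there, while Gpr6 is between 2.08 and 2.23 in all 5 libraries.

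Over all genes tested, 8 of 16546 (0.0484%) had all 5 of these libraries above the other 54, and 4 of the 8 were Drd2, Adora2a, Gpr6 and Rgs9. These same genes helped to pick the libraries. The others were Pde1b (a calcium-dependent phosphodiesterase), Nfasc, Cd4 and Serpina9. For Nfasc the lowest of the 5 was 11696 and the highest of the 54 was 11682, which left almost no gap, as for Adora2a.

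The balance of the pathways differed among the 5 libraries. The ratio of Drd2 to Drd1 had a median of 0.134 over 59 libraries, and its 2 highest values were 0.818 in HT vehicle female 3 and 0.592 in HT vehicle male 3. It was 0.333 in HT fluoxetine male 2, 0.327 in HT fluoxetine female 2 and 0.280 in WT fluoxetine female 2, while the highest of the other 54 was 0.583 in HT fluoxetine male 1, a library with little Drd1. The ratio of Tac1 to Drd1, with a median of 2.15, was lowest in HT vehicle male 3 (0.938) and next lowest in HT vehicle female 3 (1.21). The 3 fluoxetine libraries lay at 1.41, 1.78 and 1.86, at or within the range of the others (1.41 to 4.31). Penk to Drd2 was likewise lowest in the HT vehicle pair, 5.25 and 6.08 against a median of 39.0, with 11.6, 13.0 and 20.7 in the fluoxetine libraries. These ratios compare libraries and not the abundance of one gene with another. They describe 2 and 3 libraries that were picked on the same genes, so no test was made.

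**Figure D3:**
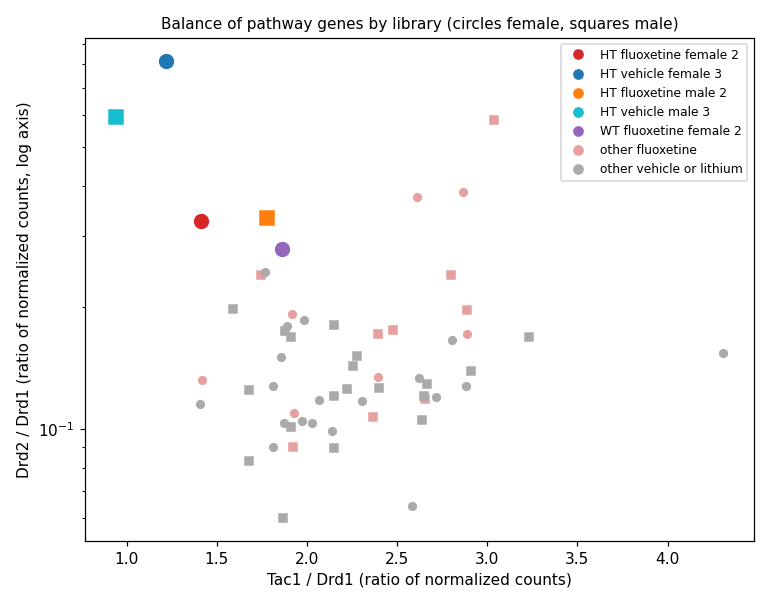
Ratio of Drd2 to Drd1 (log axis) against ratio of Tac1 to Drd1 in each of 59 libraries, from normalized counts. HT vehicle female 3 and HT vehicle male 3 lie alone at the upper left, at 0.818 and 0.592 for Drd2 to Drd1 and 1.21 and 0.938 for Tac1 to Drd1.

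Other genes of these neurons were read from lists. Of 18 signalling partners of the dopamine, adenosine and cAMP pathways 17 were measured, Gpr52 not being analysed here. Their summed level was 64258 in HT fluoxetine female 2, 62418 in HT vehicle female 3, 58427 in HT fluoxetine male 2, 57945 in HT vehicle male 3 and 53260 in WT fluoxetine female 2, against 34235 to 58278 in the others. The numbers of partners above all 54 others were 8, 8, 4, 7 and 1 in the same order. The share of all genes that exceeded the 54 in each single library is not given here. These counts therefore describe the list and say nothing particular about striatal genes. The 3 most abundant partners, Arpp21, Rgs7bp and Gnal, did not set the 5 apart, apart from Gnal at 7799 in HT fluoxetine female 2 (others up to 7403). Pde1b, a phosphodiesterase, was the only partner above all 54 others in all 5 libraries, at 4103, 4330, 3902, 3979 and 3691 in the same order (others up to 3516). Singled out after its values were seen, Scn4b, a sodium channel subunit, was above them in 4, at 2315, 3361, 1725 and 2379 (others up to 1612), and inside their range in WT fluoxetine female 2 at 1191.

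The 12 listed transcription factors of the lineage did not move as a set in the 5 libraries, although some were high in all 5. Six3, a factor of the D2 receptor lineage, was above all others in all 5, at 77.04, 37.6, 44.8, 41.8 and 29.5 in that order against at most 14.3, and was singled out after its values were seen. Bcl11b, which striatal and deep cortical neurons share, was 2656, 2680 and 2473 in the fluoxetine libraries HT fluoxetine female 2, HT fluoxetine male 2 and WT fluoxetine female 2. It was only 1209 and 1192 in HT vehicle female 3 and HT vehicle male 3, beside 1187 to 2666 in the others. Foxp1 was 2829, 2823, 2575, 2476 and 2134 in the order used for Six3, against at most 2810 in the others. Rarb was 339, 298, 309, 270.4 and 294, against at most 288. Meis2 was 2718 and 3322 in the HT vehicle pair, below the 3732 of the lowest other library, and 4368, 6045 and 7724 in the fluoxetine libraries. Foxp2, also chosen after its values were seen, was 437, 384 and 440 in the fluoxetine libraries (others up to 425) and 228 and 256 in the HT vehicle pair. Of 4 genes listed for the islands of Calleja and ventral striatum, 3 were measured. Nts, a neuropeptide gene, was at 74.0, 77.5 and 87.3 in the fluoxetine libraries (others up to 63.4) and 27.3 and 20.9 in the HT vehicle pair. Crym was 2223, 2245 and 2335 in the fluoxetine libraries and 831 and 1435 in the pair, inside the 708 to 3312 of the others. Cartpt was inside the range of the others in all 5.

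Some markers of other cells were also high in the HT vehicle pair, and the cholinergic sum was high in HT fluoxetine female 2 as well. The cholinergic genes Chat, Slc18a3 and Slc5a7 summed to 153 in HT vehicle female 3 and 144 in HT vehicle male 3, against 30.4 to 79.4 in the other 54, and to 120, 66.3 and 56.7 in HT fluoxetine female 2, HT fluoxetine male 2 and WT fluoxetine female 2. Of 5 thalamic genes, led by Rora, Plekhg1 and Prkcd, 4 and 3 exceeded all others in the pair, with sums of 4011 and 3377 (others 2207 to 3093), whereas the fluoxetine libraries stood at 2791, 2373 and 2429. Without the share of all genes that exceeded the others in each of the pair, these counts are a description only. Ependymal sums were 326 and 355 in the pair and 127 to 280 in the others. Choroid plexus sums were 143 and 146, inside the range of 76.3 to 433, but the genes in them differed. Singled out after its values were seen, Ttr was 43.3 and 40.6 in the pair, against a median of 4.99. It was 1.03, 0.934 and 1.13 in the fluoxetine libraries, and the highest other value was 47.3 in WT vehicle male 2. Folr1, singled out likewise, was 11.3 and 10.4 in the pair (others up to 10.6). For Aqp1, Kl and Clic6 the pair lay inside the range of the others. Olfactory bulb markers summed to 258 and 247 in the pair and to 570.1, 2439 and 7506 in the fluoxetine libraries, with S100a5 and Barhl2 each at 0 in 2 of the 5, and cortical excitatory sums in the 5 libraries were 55795 to 68672, inside the 32029 to 82203 of the others. Slc17a7 was the largest part of the cortical sums, at 46601 and 49565 in the pair. Within them Cux2 was 4616 and 5020 there (median 3642), and Neurod6, singled out after its values were seen, 1623 and 1889 (median 2882). The part of these other cell types in the levels of the 9 genes was not tested.

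Outside the 5 libraries the members did not move as a set. Over the 54, Drd1 ran with Ppp1r1b (Pearson r 0.82, Spearman rho 0.68) and with Tac1 (r 0.67, rho 0.62). Drd2 ran weakly with Adora2a (r 0.36, rho 0.23) and with Rgs9 (r 0.56, rho 0.46). Without the 2 farthest libraries the r of Drd1 and Ppp1r1b was 0.75, and over the 38 libraries without fluoxetine it was 0.58. These correlations of log2 levels describe libraries that share groups, depth and dissection, and carry no p.

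Penk and Adora2a ran with the olfactory bulb. The bulb level was taken as the mean standardized log2 level of 8 markers (Eomes, Tbx21, Omp, S100a5, Th, Cdhr1, Barhl2 and Doc2g), genes of the mitral, periglomerular and sensory cells of that region. Over the 54 libraries it had an r of 0.72 and rho of 0.64 with Penk and an r of 0.73 and rho of 0.65 with Adora2a, but an r of -0.65 and rho of -0.48 with Ppp1r1b and an r of -0.55 and rho of -0.37 with Drd1. The Penk relation was 0.66 without the 2 farthest libraries, 0.70 after group means were removed and 0.46 over the 38 libraries without fluoxetine. After group means were removed and over those 38 libraries, r was 0.55 and 0.44 for Adora2a. For Ppp1r1b these values were -0.48 and -0.33, and for Drd1 -0.34 and -0.18. Of the 10 libraries highest in bulb level, 9 had received fluoxetine, 7 were among the 10 highest in Penk and 6 were among the 10 lowest in Drd1.

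HT fluoxetine male 1 was the extreme of that relation. Its bulb markers summed to 25711, its Penk of 2356 was the highest of all libraries, and its Drd1 of 77.5 and Tac1 of 235 were the lowest. Its Gad1, which makes the transmitter GABA, was also the highest, at 21512. The 2 HT vehicle libraries high in Drd2 went against it, with 1596 and 1426 of Penk at bulb sums of 258 and 247, below the bulb median of every arm.

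**Figure D4:**
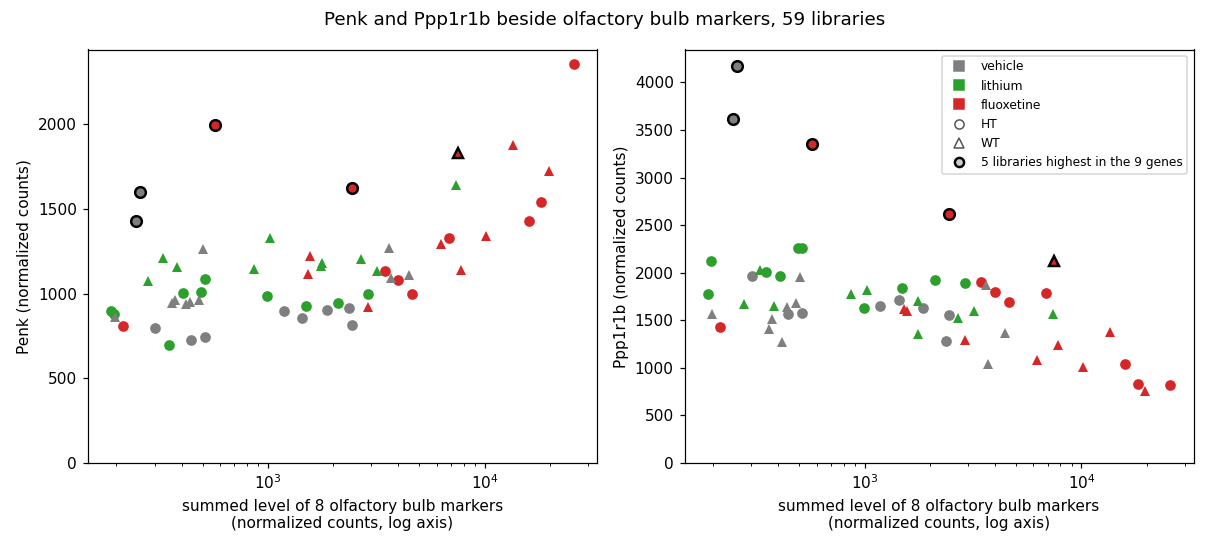
Penk (left) and Ppp1r1b (right) in normalized counts against the summed level of 8 olfactory bulb markers (log axis) in 59 libraries, colored by drug, with circles for HT, triangles for WT and black outlines for the 5 libraries high in the 9 genes. Penk is highest (2356) and Ppp1r1b low (823) in HT fluoxetine male 1, the library with the highest bulb sum, and the outlined libraries lie above the others at their bulb level.

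The design asks what fluoxetine or lithium does under each genotype label and what the label does in vehicle pups. All comparisons used limma on log2 normalized counts plus 1 over 16546 genes, with the sexes weighted equally and p-values adjusted by the Benjamini-Hochberg method at 0.05. Penk was higher after fluoxetine in both genotypes and was the only one of the 9 genes to pass in any comparison. The drug comparisons within a genotype share the vehicle libraries of that genotype, and the HT and WT vehicle libraries also enter the genotype comparison.

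Penk in the 10 HT vehicle libraries ran from 724 to 1596 with a median of 876 (mean 967 ± 297, SD), and in the 10 HT fluoxetine libraries from 809 to 2356 with a median of 1379 (mean 1429 ± 474, SD). Of the latter, 9 of 10 were above the vehicle mean and 3 above the highest vehicle library, so the groups overlapped. The log2 difference was 0.54 (SE 0.132, adjusted p = 0.00188). In WT pups the 10 vehicle libraries ran from 861 to 1266 with a median of 959.9 (mean 1034 ± 141, SD) and the 9 fluoxetine libraries from 918 to 1879 with a median of 1291 (mean 1384 ± 345, SD). Here 8 of 9 lay above the vehicle mean and 5 above its highest library. The log2 difference was 0.42 (SE 0.136, adjusted p = 0.0296 by limma), and the difference between genotypes in the fluoxetine effect was 0.12 (SE 0.190, adjusted p = 0.9996).

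That made 1 of 9 members called in HT pups, where 29.2% of all genes passed, 14.6% in the higher direction, and 1 of 9 in WT pups, where 14.9% passed, 8.81% higher. The 9 genes had medians of 0.084 (HT) and 0.13 (WT) on the log2 scale, against -0.0051 and -0.0041 over all genes. The shares are near those of the table, so the count says nothing particular about the members. Bulb markers moved in the same comparisons, 8 of 8 higher in each genotype with medians on the log2 scale of 2.79 (HT) and 3.25 (WT), and bulb sums with medians of 4313 and 7506 after fluoxetine and 847 and 460 after vehicle in HT and WT.

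Within each sex, Penk was higher by 0.69 in WT females (SE 0.199, adjusted p = 0.0129 by limma) and by 0.63 in HT males (SE 0.187, adjusted p = 0.0219). The values for HT females, 0.46 (SE 0.187, adjusted p = 0.123), and WT males, 0.16 (SE 0.187, adjusted p = 0.972), did not pass. WT males are the fluoxetine group outside the 14 libraries low in mt-Atp6, and the share of genes called was 0 there, 19.8% in WT females, 13.4% in HT males and 6.85% in HT females. With the bulb level as a covariate, an alternative chosen after seeing the data, the Penk difference was 0.40 (adjusted p = 0.0871) in HT and 0.23 (adjusted p = 0.806) in WT pups, and with the 14 libraries as a term -0.060 (adjusted p = 0.9999) and 0.12 (adjusted p = 0.972). All HT fluoxetine libraries are among the 14 and no other HT library is, so drug and term cannot be told apart in HT pups. The size of the term came from WT fluoxetine females against males, and the HT value is not an adjusted drug effect. The next values are from fits without these terms. Fitted to the compared groups alone the Penk difference was 0.54 with an adjusted p of 0.0537 in HT. In WT pups the call was lost when any 1 of WT fluoxetine female 2, 3 or 4, WT fluoxetine male 2 or WT vehicle male 2 was left out (adjusted p up to 0.0687). Without the 5 libraries the Penk difference was 0.62 (adjusted p = 0.000257) in HT and 0.40 (adjusted p = 0.0143) in WT pups. Those libraries were picked on levels that include Penk and every other member, so values without them are descriptions and their p-values support nothing.

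**Figure D5:**
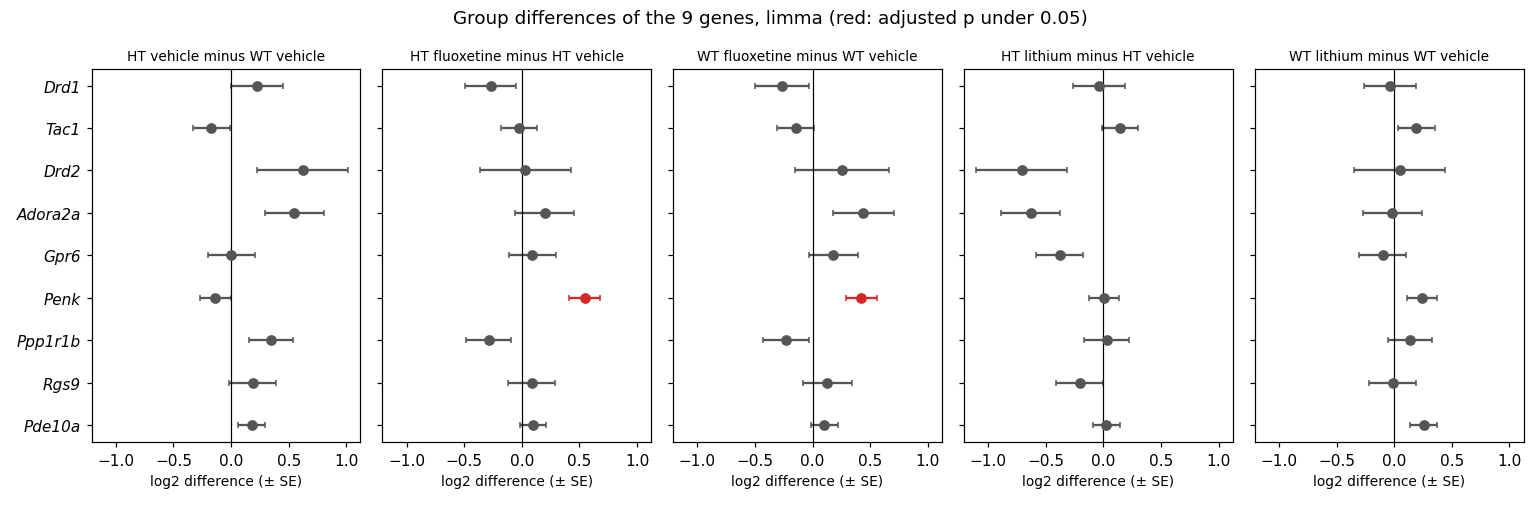
Log2 difference of each of the 9 genes (± SE, limma) in the 5 comparisons of genotype and drug, with red for an adjusted p under 0.05. Penk after fluoxetine is red at 0.54 in HT and 0.42 in WT pups, and the bars of Drd2 are the widest, with an SE of 0.396 in HT lithium against vehicle.

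The other 8 genes gave values that did not pass after fluoxetine. Medians of HT vehicle and HT fluoxetine libraries were 209 and 183 for Drd1, 391 and 352 for Tac1, 27.4 and 35.2 for Drd2 and 92.4 and 135 for Adora2a. In WT libraries they were 182 and 161 for Drd1, 441 and 378 for Tac1, 21.6 and 35.2 for Drd2 and 77.3 and 109 for Adora2a. The log2 difference of Drd1 was -0.27 (SE 0.225, adjusted p = 0.375) in HT and -0.26 (SE 0.232, adjusted p = 0.459) in WT pups. That of Adora2a was 0.20 (SE 0.257, adjusted p = 0.591) in HT and 0.44 (SE 0.264, adjusted p = 0.253) in WT pups. Adora2a was above the vehicle mean in 8 of 9 WT fluoxetine libraries but in 3 of 10 HT ones, where the vehicle group contains 526 and 396. Without the 5 libraries, 2 of which are HT vehicle libraries picked partly on their Adora2a, its HT difference was 0.41 (adjusted p = 0.0251 by limma, a description as for Penk). Fitted to the WT vehicle and fluoxetine groups only, its difference of 0.44 had an adjusted p of 0.0139. Ppp1r1b was -0.29 (SE 0.195) in HT and -0.23 (SE 0.201) in WT, Gpr6 0.090 (SE 0.206) and 0.18 (SE 0.212), Rgs9 0.084 (SE 0.204) and 0.13 (SE 0.210), Pde10a 0.095 (SE 0.115) and 0.10 (SE 0.119), Tac1 -0.022 (SE 0.157) and -0.15 (SE 0.162), and Drd2 0.029 (SE 0.396) and 0.25 (SE 0.408).

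The lists around the members are read against the 29.2% of all genes called after fluoxetine in HT and 14.9% in WT pups. Of 16 signalling partners tested, 2 rose in HT pups (Chrm4, Actn2) and 6 fell (Adcy5, Gng7, Rgs7bp, Ptpn5, Pdyn and Scn4b), with a list median of -0.20. In WT pups 3 rose (Rasgrp2, Syndig1l and Actn2) and 0 fell, with a median of -0.10, a count near the background share. Adcy5, the adenylyl cyclase of striatal neurons, fell by 0.24 on the log2 scale (SE 0.0787, adjusted p = 0.0202 by limma), and Scn4b fell by 0.80 (SE 0.288, adjusted p = 0.0319). The vehicle group contains HT vehicle female 3 (5621 and 3361 for Adcy5 and Scn4b) and male 3 (5859 and 2379). HT fluoxetine female 2 (5355 and 2315) and male 2 (5295 and 1725) were also high, and HT fluoxetine male 1 was lowest of all (2889 and 156). The part of these libraries in the 2 falls was not tested. Of 10 transcription factors tested, Sp9 and Meis2, which bulb interneuron precursors also express, rose in both genotypes, Sp9 by 1.40 in HT (SE 0.396, adjusted p = 0.00704) and 1.63 in WT (SE 0.408, adjusted p = 0.00715). Foxp1 and Ikzf1 fell in HT pups. The cortical excitatory genes Slc17a7, Cux2, Rorb and Emx1 fell in HT pups, 4 of 8, and Rorb in WT pups, 1 of 8, near the background share. Of 6 interneuron genes tested, Gad1 and Gad2 rose in both genotypes, Pvalb and Vip fell in both, and Lhx6 fell in HT pups.

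Lithium gave 0 of 9 members called in either genotype by limma, where 2.84% of genes passed in HT and 1.61% in WT pups, and 1 member in each had an unadjusted p under 0.05. Drd2 in the HT lithium libraries ran from 13.3 to 33.2 with a median of 26.8, and in HT vehicle from 20.2 to 304 with a median of 27.4. The medians nearly coincide, and the 2 vehicle libraries at 304 and 234 are the ones above the lithium range by a wide margin. The log2 difference was -0.71 (SE 0.396, adjusted p = 0.355) for Drd2 and -0.63 (SE 0.257, adjusted p = 0.174) for Adora2a, whose lithium range was 58.4 to 93.2. On recovered reads both passed, at -1.53 (adjusted p = 0.0462) and -1.06 (adjusted p = 0.0294) by edgeR and at -1.54 (adjusted p = 0.0213) and -1.06 (adjusted p = 0.0135) by DESeq2. Without the 5 libraries they were -0.044 (adjusted p = 0.968) and -0.15 (adjusted p = 0.739) by limma. This is a description only, since the libraries left out were picked partly on Drd2 and Adora2a and a smaller difference was built in. In WT pups Pde10a was 0.26 higher (SE 0.115, adjusted p = 0.282), passing when only those groups were fitted (adjusted p = 0.0178), and Penk 0.24 (SE 0.132, adjusted p = 0.400) with 10 of 10 lithium libraries above the vehicle mean. The median of the 9 genes was -0.036 in HT and 0.050 in WT, and 0 of the 16 partners and 0 of the 10 transcription factors tested passed in either.

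Between the genotype labels in vehicle pups, 0 of 9 members and 0 of all 16546 genes passed (0%), with 1 member and 1618 genes at an unadjusted p under 0.05. The members' median was 0.19. Adora2a was 0.55 (SE 0.257, adjusted p = 0.477) and Drd2 0.62 (SE 0.396, adjusted p = 0.594) higher under the HT label, with ranges of 67.1 to 526 in HT and 63.9 to 108 in WT for Adora2a and of 20.2 to 304 and 13.4 to 79.0 for Drd2. Without the 5 libraries, HT vehicle female 3 and HT vehicle male 3 among them, they were 0.066 and -0.045 (adjusted p = 0.9997 for each by limma). Those libraries were picked partly on these same genes, so a smaller difference was built in and the values are a description only. The genotype difference in the lithium effect called 0 members and 0 genes (0%), and that in the fluoxetine effect 0 members against 0.0302% of genes.

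The genes whose pattern over 59 libraries was most like the members' mean level were, by Pearson r of log2 levels, Pde1b (r 0.80), Nfasc (0.76), Serpina9 (0.75), Ecel1 (0.73), Cplx3 (0.72), Prkcq (0.72), Cd4 (0.69), Bcas1 (0.69), Rarb (0.69) and Sirt2 (0.68). Spearman rho for these ran from 0.24 for Cd4 to 0.70 for Ecel1. Over the 54 libraries outside the 5 highest, r dropped to 0.31 for Pde1b and 0.02 for Cd4 but was 0.58 for Ecel1 and Serpina9, so likeness to the set rested on the 5 libraries to different degrees. Most like the direct pathway genes were Hs3st4 (r 0.83), Gm40518 (0.82) and Nxph3 (0.82), for which r over the 54 was 0.83, 0.81 and 0.86. Nxph3, a secreted neurexin ligand, is a known gene of the deepest cortical layer. Most like the indirect pathway genes were Syndig1l (r 0.82), Ryr3 (0.78) and Ptprv (0.76), with 0.79, 0.62 and 0.60 over the 54.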

How the data were processed

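The authors used a stranded poly(A) kit, per the labels' protocols. The submitters' processing notes name Salmon 0.11.2, DESeq2 1.19.11, R 3.6.0 and the build GRCm38. The deposited values are thus a normalized signal per gene, read counts that the authors scaled by library size factors (0.850 to 1.203 as recovered), called normalized counts here. Whole reads came back from 100% of values within a tolerance of 0.01. The planned design had allowed for raw counts and had set out the test below for normalized values. Of 18088 genes, the 16546 averaging 10 or more were tested as log2(value + 1), a scale that understates changes of low genes, with limma 3.58.1 in R 4.3.3 (trended, robust prior), 12 group means, and Benjamini-Hochberg adjustment over all tested genes.

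Alternatives were pseudocounts of 0.5 and 5, no filter, a mean of at least 50, quantile normalization, the compared groups alone, the replicate number as a block, edgeR 4.0.16 and DESeq2 1.42.0 on recovered reads, each library left out, and 3 chosen after seeing the data (without the 5 highest libraries, the bulb level as a covariate, and the 14 libraries low in mt-Atp6 as a term). The last fit used 6 genotype and drug means with sex added, because the 14 libraries are whole groups. In HT pups its term coincides with fluoxetine, so its HT fluoxetine values cannot separate the drug from the division. The members and lists were chosen with earlier results of these data known. Named genes are the members, the 3 genes of each list with the highest mean, members of a list that passed, and the genes most like the members by Pearson r (10 for the set, 3 for each pathway); others are marked where they appear. The test was checked on simulated data with the same dispersion for every gene and no outlying library, so the check does not cover libraries such as the 5 highest. No 2 libraries of the same group agreed within sampling noise, and pairs across groups were not compared. Each gene's exon length is its merged GENCODE exons.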

Additional observations from a re-analysis of the deposited data

Results flagged for a closer look

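Single libraries stood far from their group mates in 25 of 108 sets of 1 gene and 1 group (lowest or highest value, gap over range). The cut-off was one that chance passes in about 1 in 20 sets, but the count cannot be set against that rate. Of these, 20 were in the 5 libraries highest in the 9 genes, and 8 of the 9 genes were involved. The genes were listed with high samples already known, the sets share libraries, and the 5 libraries were picked on the same genes. The share of all genes flagged by this rule is not given here, so the count is a description.

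In HT vehicle female 3 the values were 371 for Drd1, 304 for Drd2, 526 for Adora2a, 92.2 for Gpr6, 1596 for Penk, 4175 for Ppp1r1b and 924 for Rgs9. In HT vehicle male 3 they were 396 for Drd1, 234 for Drd2, 396 for Adora2a, 1426 for Penk and 802 for Rgs9. HT fluoxetine female 2 stood apart in Drd1 (525), Tac1 (741), Drd2 (172), Adora2a (348) and Rgs9 (954). HT fluoxetine male 2 stood apart in Gpr6 (93.4), and WT fluoxetine female 2 in Drd2 (88.4) and Rgs9 (636).

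Outside the 5 libraries, WT vehicle female 4 was high in Drd2 (79.0), and WT vehicle male 3 was high in Drd1 (281) and Drd2 (55.5). HT lithium male 3 was low in Penk (694) and WT lithium male 3 low in Drd2 (20.8). Drd2 gave the most such values of the 9 genes, and Pde10a gave 0.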

How the results depend on the processing

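Of 530 values (45 log2 differences under 12 alternatives), 482 kept their direction and side of the threshold, 37 changed sign, 4 no longer passed and 7 passed anew; a mean of at least 50 left out Drd2 and Gpr6. Of the sign changes, 1 was of a called value, Penk in HT pups after fluoxetine, with the 14 libraries as a term. In HT pups that term cannot be told apart from the drug. Both Penk calls held with either pseudocount, without the filter, with the higher filter, quantile normalization, the replicate block, edgeR, DESeq2 and without the 5 highest libraries (adjusted p from 0.000257 to 0.0419), the last a description, since those were picked on the members' levels. Drd2 had the largest SE of the 9 genes after HT fluoxetine (0.396). Except where the fit itself leaves out samples, the cause of a change was not tested. Fitted to the compared groups alone, 0 members were called for HT fluoxetine, 2 for WT fluoxetine and 1 for WT lithium, beside 2244, 3677 and 617 of all genes against 4833, 2464 and 266. For HT lithium edgeR and DESeq2 each called 2. For HT fluoxetine 2 were called without the 5 highest libraries, which were picked on the members' own levels. With the bulb covariate or the 14 libraries as a term 0 were called there. For WT fluoxetine these 2 terms also gave 0. The shares of all genes called under these fits are not given here, so these counts say nothing particular about the members.

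Values that changed sign are log2 differences from vehicle, or HT minus WT in vehicle pups. With a pseudocount of 0.5 and with quantile normalization Gpr6 for HT minus WT was -0.000309 and -0.00288, and quantile normalization gave -0.028 for Drd2 after HT fluoxetine and -0.0081 for Penk after HT lithium. By edgeR and DESeq2 the values after HT fluoxetine were 0.070 and 0.073 for Tac1, -0.38 and -0.38 for Drd2, and -0.067 and -0.066 for Adora2a. By the same tools Penk was -0.041 and -0.039 and Ppp1r1b -0.080 and -0.077 after HT lithium, and Drd2 -0.13 and -0.14 after WT lithium. Without the 5 highest libraries HT minus WT was -0.045 for Drd2, -0.26 for Gpr6 and -0.12 for Rgs9, and HT lithium gave 0.14 for Drd1 and 0.10 for Rgs9. With the bulb covariate HT fluoxetine gave 0.13 for Drd1, 0.13 for Tac1 and 0.10 for Ppp1r1b, WT fluoxetine 0.25, 0.052 and 0.28 for the same genes, HT lithium -0.013 for Ppp1r1b, and WT lithium 0.068 for Drd1 and 0.033 for Rgs9. With the 14 libraries as a term HT fluoxetine gave -0.82 for Drd2, -0.14 for Adora2a, -0.0071 for Gpr6, -0.060 for Penk and -0.36 for Rgs9, and WT fluoxetine -0.17 for Drd2 and -0.095 for Rgs9.

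Leaving out each of the 59 libraries gave 70 sign changes and 5 lost calls among 2655 values, and 0 to 1 members called for WT fluoxetine. The lost calls were of Penk in WT pups, at 0.39 to 0.41. Over all 59 fits Penk ran from 0.39 to 0.48 in WT pups and from 0.46 to 0.64 in HT pups. Sign changes fell in uncalled values. After HT fluoxetine these ran from -0.24 to 0.38 for Drd2, -0.037 to 0.24 for Gpr6, -0.00103 to 0.16 for Pde10a, -0.089 to 0.25 for Rgs9 and -0.15 to 0.079 for Tac1. After HT lithium they ran from -0.11 to 0.062 for Drd1, -0.012 to 0.082 for Pde10a, -0.039 to 0.10 for Penk and -0.039 to 0.17 for Ppp1r1b. After WT lithium they ran from -0.077 to 0.047 for Adora2a, -0.11 to 0.041 for Drd1, -0.065 to 0.24 for Drd2 and -0.067 to 0.068 for Rgs9, and Gpr6 for HT minus WT from -0.15 to 0.074.

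The replicate numbers were not treated as pairs in the main fit, and no label says that a number marks a litter or day. Both high HT vehicle libraries have number 3 and the 3 high fluoxetine libraries number 2. The median correlation of deviations from group means was 0.0186 between libraries with the same number and -0.00546 between others, and the lowest for the same number was -0.472. These medians pool all groups, as does the replicate block, so a pairing confined to some groups could go unseen. With the replicate block, Penk was 0.54 (adjusted p = 0.00236 by limma) in HT and 0.41 (adjusted p = 0.0419) in WT pups, and no count of members called changed.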
